A study of Mus musculus with 14 samples.

Results

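A set of 10 genes used as markers of thalamic neurons were followed through cortex and hippocampus: the zinc finger factors Zic1 and Zic4, the Wnt-responsive factors Tcf7l2 and Lef1, the nuclear receptor Rora, the kinase Prkcd, the vesicular glutamate transporter Slc17a6, the calcium-binding protein Calb2, the troponin Tnnt1 and the receptor-modifying protein Ramp3. They were chosen by symbol, with earlier results of these data known, as a readout of thalamic tissue in the samples. All 10 were found among the 20492 gene symbols of each table, where they hold 23 of 26348 coding-sequence rows. The study asked how far neurons depend on functional telomeres. Cortex and hippocampus of C57BL/6 mice aged 3 months were sequenced, with control samples beside samples labelled as depleted of TRF2, the telomere-binding protein encoded by Terf2. The design text names Cre recombinase driven from Dcx, a gene of young migrating neurons. The labels give 4 control samples and 3 TRF2-depleted samples of cortex, and 3 samples in each of these groups for hippocampus, with the controls named WT in the design text. One further TRF2-depleted sample carries the names of both tissues and was placed in no group. The hippocampus table also holds a condition headed DKO, which no label describes, so its genotype and its number of samples are not known here and it is called by that heading. The authors deposited 1 pooled FPKM value (fragments scaled by transcript length and library size) for each condition, so no spread between samples can be given. The test is the authors' own (Cuffdiff), and a gene passed when 1 of its rows had q, the adjusted p, at 0.05 or less. Values below are FPKM, summed over a gene's rows where it has several.

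The thalamus lies directly below the hippocampus and is separated from it by thin tissue, so a dissected hippocampus can carry thalamic or habenular cells along with meninges and choroid plexus. Thalamic relay neurons release glutamate through the transporter VGLUT2, encoded by Slc17a6, and stay under the control of Tcf7l2, a factor of the Wnt pathway, into adult life. None of the 10 genes belongs to the thalamus alone: calretinin (Calb2) also marks interneurons and mossy cells of the dentate gyrus, Rora is present in astrocytes and several neuron types, Lef1 in blood vessel endothelium, and Zic factors are known from the meninges, the septum and the cerebellum as well as from the thalamus. No thalamic sample is among those analysed here, so the levels cannot be placed against thalamus itself.

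Zic1 and Zic4 are head-to-head neighbours, and the promoter stretches of both are shown because these genes were higher together in hippocampus, beside that of Prkcd, a gene of thalamic relay neurons that did not pass the test. Each holds 250 bases before and 50 after a listed start of the gene (RefSeq, GRCm38.p6), 5′ to 3′ on the gene's own strand. Capitals mark 2 motifs searched on both strands, TCAAAG (reverse complement CTTTGA), the core bound by Lef1 and Tcf7l2, and CCAAT (reverse complement ATTGG), the CCAAT box. These 2 strings do not overlap in the windows shown.
Zic1, chr9:91365719-91366018, minus strand: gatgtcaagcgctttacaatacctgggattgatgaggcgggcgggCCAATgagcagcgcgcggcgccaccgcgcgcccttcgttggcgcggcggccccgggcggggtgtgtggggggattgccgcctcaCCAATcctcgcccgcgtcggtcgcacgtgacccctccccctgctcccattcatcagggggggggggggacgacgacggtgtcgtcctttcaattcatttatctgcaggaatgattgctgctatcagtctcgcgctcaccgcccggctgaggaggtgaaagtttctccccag
Zic4, chr9:91368722-91369021, plus strand: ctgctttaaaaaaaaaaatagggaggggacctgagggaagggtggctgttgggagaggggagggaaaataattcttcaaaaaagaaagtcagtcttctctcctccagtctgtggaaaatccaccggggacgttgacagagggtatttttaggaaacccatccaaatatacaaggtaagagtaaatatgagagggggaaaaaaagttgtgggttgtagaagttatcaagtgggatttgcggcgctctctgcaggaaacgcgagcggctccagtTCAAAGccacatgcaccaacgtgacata
Prkcd, chr14:30626159-30626458, minus strand: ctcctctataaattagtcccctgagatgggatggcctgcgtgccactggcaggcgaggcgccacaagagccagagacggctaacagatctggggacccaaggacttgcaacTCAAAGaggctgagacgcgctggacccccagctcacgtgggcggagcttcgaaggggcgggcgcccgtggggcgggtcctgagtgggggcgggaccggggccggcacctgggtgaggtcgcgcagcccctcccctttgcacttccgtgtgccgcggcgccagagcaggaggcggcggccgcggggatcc
The starts that these windows take for Zic1 and Zic4 lie 3204 bases apart. Those taken for Zic4 (91368972) and Prkcd (30626208) lie inside the RefSeq gene spans. These spans begin at 91365631 for Zic4 and, on the minus strand, at 30626414 for Prkcd. TCAAAG was found once in the Zic4 window and once in that of Prkcd, and not in that of Zic1. CCAAT was found 2 times in the Zic1 window. The 9 members with an entry had 15 windows, of which 3 held TCAAAG, in 3 members. CCAAT was held by 2 members, Rora and Zic1, each of which has only 1 window among the 15. Among all 32851 mouse windows of 300 bases in the same set, 5257 held TCAAAG and 12289 (37.4%) held CCAAT. The loci that the authors' deposited table gives for Zic1 (chromosome 9 from 91358063 to 91365799 in hippocampus, mm10) and Zic4 (chromosome 9 from 91368972 to 91389348) do not overlap, while the RefSeq spans of the pair share 138 bases. The labels do not state whether the libraries kept the strand, so reads from the shared stretch cannot be told apart.

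In the hippocampus, Zic1 rose in both conditions that were compared with control. Of the other 9 genes, 5 were tested there and 0 of these passed, while Zic4, Tcf7l2, Lef1 and Tnnt1 were not tested. The authors' deposited table lists Zic1 at 2.12 FPKM in control, 4.51 FPKM in TRF2-depleted and 4.69 FPKM in DKO hippocampus. The TRF2-depleted and DKO values were thus close to each other and both above control. For TRF2 depletion the log2 ratio was 1.09 and for DKO 1.15, each with p = 5e-05, the smallest in the authors' deposited table, and q = 0.0301. Between DKO and TRF2-depleted hippocampus the log2 ratio of Zic1 was 0.06 (p = 0.767, q = 0.977 in the authors' deposited table). Both rises are measured from the same control samples and are not independent of each other. Calls of this kind were rare: at a q of 0.05, 0.0543% of all tested rows were higher in TRF2-depleted hippocampus and 0.0635% were higher in DKO. In whole tissue, a change in the number of cells that express a gene cannot be told apart from a change in its RNA per cell.

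**Figure D1:**
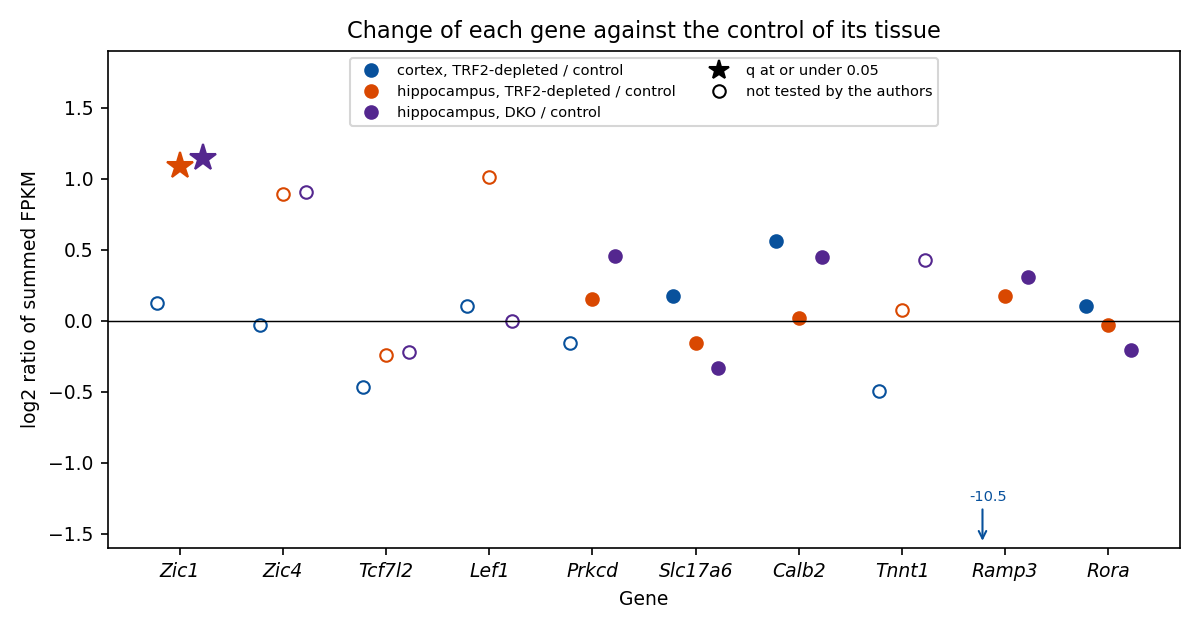
Log2 ratio of summed FPKM (vertical axis) of each of the 10 genes (horizontal axis) against the control of its tissue. Colours give the comparison, stars mark rows at a q of 0.05 or less, filled circles genes with at least 1 row the authors tested and open circles genes with none. Zic1 stands at 1.09 and 1.15 in hippocampus, and the arrow marks the cortex ratio of Ramp3, which lies below the axis at -10.5.

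Zic4, a relative of Zic1 that is transcribed in the opposite direction, was at 0.288 FPKM in control, 0.535 FPKM in TRF2-depleted and 0.540 FPKM in DKO hippocampus. Both conditions were above control (log2 ratios 0.89 and 0.91), but the authors did not test Zic4 in any comparison, and its level was the lowest of the 10 genes in control hippocampus. Zic2 and Zic5, relatives read as a separate list, also had higher values in both conditions. Zic2 stood at 2.87, 4.56 and 4.69 FPKM in control, TRF2-depleted and DKO hippocampus. Its log2 ratios were 0.66 (p = 0.00125, q = 0.298) and 0.71 (p = 0.0003, q = 0.120) in the authors' deposited table and did not pass. Zic5 had log2 ratios of 0.99 and 1.03 and was untested and under 1 FPKM in all 3 conditions. Summed over Zic1, Zic2, Zic4 and Zic5, the level was 5.65 FPKM in control, 10.3 FPKM in TRF2-depleted and 10.7 FPKM in DKO hippocampus, with 4 of 4 higher than control in each and 1 of the 2 tested, Zic1, past the threshold.

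In the cortex, 1 of these 4 genes was higher under TRF2 depletion and 3 were lower, with 0 past the threshold by Cuffdiff and 0 at an unadjusted p under 0.05. Zic1 had 1.14 FPKM in the control group and 1.24 FPKM under TRF2 depletion (log2 ratio 0.12) and was not tested. Its deposited locus is shorter there (chromosome 9 from 91360345 to 91365799), and the tables were normalised separately, so levels in cortex and hippocampus are set side by side without a test. Zic4 had 0.221 and 0.216 FPKM. The authors' deposited table lists Zic2 at 2.43 and 1.88 FPKM (log2 ratio -0.37, p = 0.0574, q = 0.491), and Zic5, untested, had a log2 ratio of -0.45. Whether the Zic1 ratio differs between cortex and hippocampus was not tested, because the authors did not test Zic1 in cortex.

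**Figure D2:**
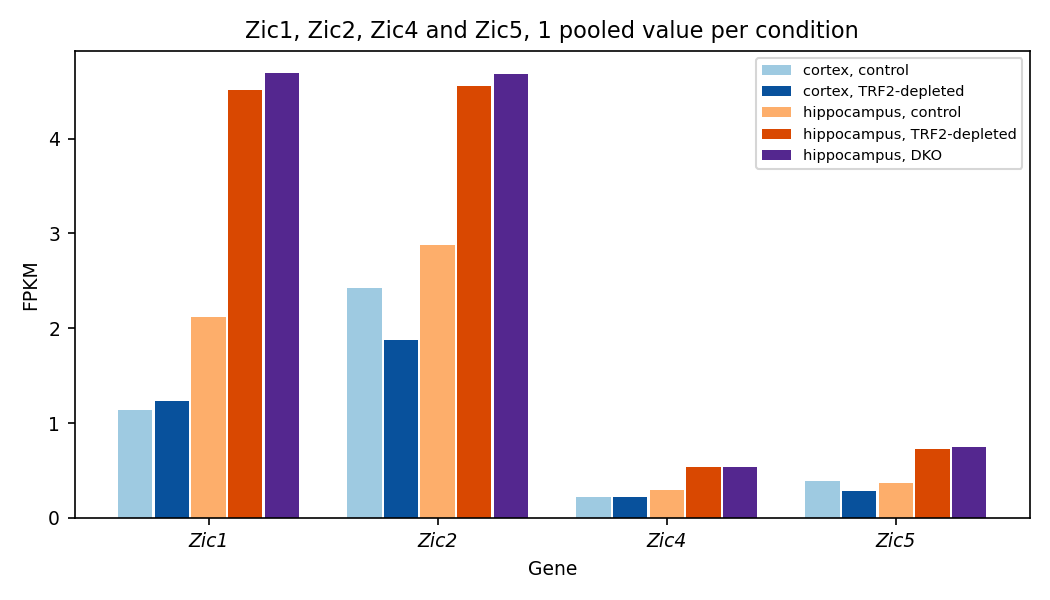
Pooled FPKM (vertical axis, from 0) of Zic1, Zic2, Zic4 and Zic5 (horizontal axis) in the 5 conditions, 1 bar each and with no error since replicates were pooled by the authors. For each of the 4 genes the TRF2-depleted and DKO bars of hippocampus stand above the control bar, for Zic1 at 4.51 and 4.69 against 2.12 FPKM.

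The factors of the Wnt pathway were near the limit of what was tested. Tcf7l2, which keeps the identity of thalamic neurons and is also known from oligodendrocyte precursors, had 1.35 FPKM in control, 1.15 FPKM in TRF2-depleted and 1.16 FPKM in DKO hippocampus, and 1.59 and 1.15 FPKM in control and TRF2-depleted cortex. All comparisons with control gave a lower value (log2 ratios -0.24, -0.22 and -0.47). None of its 8 rows was tested in any comparison. Lef1, its close relative, was at 0.571, 1.15 and 0.570 FPKM in control, TRF2-depleted and DKO hippocampus, so the value was higher in the TRF2-depleted group (log2 ratio 1.01) and level with control in DKO. The authors' deposited table lists the most abundant control row of Lef1 lower under TRF2 depletion (0.529 against 0.376 FPKM), and none of the 3 rows was tested. Among 12 targets and cofactors of these factors, 7 reached 1 FPKM in TRF2-depleted or control hippocampus, with 3 higher and 4 lower (median log2 ratio -0.04). Of these 0 passed by Cuffdiff and 0 had an unadjusted p under 0.05, and the same held in DKO (2 higher, 5 lower, median -0.06). Axin2, a feedback target of Wnt signalling, had 3.90, 3.48 and 3.25 FPKM in control, TRF2-depleted and DKO hippocampus. Its p was 0.334 and 0.108 in the authors' deposited table.

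Genes of the signalling and excitability of thalamic relay neurons did not pass in any comparison. Slc17a6, which loads glutamate into synaptic vesicles, had 5.03 FPKM in control, 4.51 FPKM in TRF2-depleted and 3.99 FPKM in DKO hippocampus. Both conditions were below control, opposite to Zic1, with log2 ratios of -0.16 (p = 0.326) and -0.34 (p = 0.0343, q = 0.873) in the authors' deposited table. In cortex the same gene had 5.14 and 5.80 FPKM (log2 ratio 0.17, p = 0.196 in the authors' deposited table). Its paralog Slc17a7, the main vesicular glutamate transporter of cortex and hippocampus, stood at 239, 235 and 258 FPKM in the 3 hippocampus conditions, far above Slc17a6 per length. Prkcd, protein kinase C delta, was at 3.84, 4.26 and 5.25 FPKM in control, TRF2-depleted and DKO hippocampus. Its log2 ratios of 0.15 (p = 0.430) and 0.45 (p = 0.0105, q = 0.641) in the authors' deposited table were positive without passing. Prkcd in cortex was lower than in hippocampus, at 1.23 and 1.10 FPKM, and untested. Rora, a nuclear receptor, had 4.36, 4.26 and 3.77 FPKM in the 3 hippocampus conditions and 9.02 and 9.69 FPKM in cortex. Its summed ratio was small in each comparison with control (log2 -0.03, -0.21 and 0.10), although single cortex rows of Rora differed more. The authors' deposited table lists 1 row at 4.97 FPKM in control and 2.61 FPKM under TRF2 depletion (p = 0.110, q = 0.583), and another at 3.75 and 6.91 FPKM (p = 0.0560, q = 0.486), in opposite directions.

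Calb2, calretinin, was the highest of the 10 genes in all 3 hippocampus conditions, at 9.82 FPKM in control, 9.96 FPKM in TRF2-depleted and 13.4 FPKM in DKO. TRF2-depleted hippocampus was thus at the control level, and DKO was above both. The authors' deposited table gives p = 0.915 for TRF2 depletion (log2 ratio 0.02), p = 0.0072 and q = 0.561 for DKO against control (0.45) and p = 0.00995 and q = 0.634 for DKO against TRF2-depleted (0.43). In cortex Calb2 stood at 2.55 FPKM in the control group and 3.75 FPKM under TRF2 depletion (log2 ratio 0.56, p = 0.0253, q = 0.364 in the authors' deposited table). Read without adjustment, p fell under 0.05 for 4 of the 6 tested members in DKO against control (Zic1, Calb2, Prkcd and Slc17a6), the first 3 higher and the last lower, while 3.83% of all tested rows were higher and 2.87% lower at that limit. For TRF2 depletion in hippocampus this held for 1 member, Zic1, against 2.42% of rows higher and 2.46% lower, and in cortex for 1, Calb2, against 2.07% and 4.17%. For DKO against TRF2-depleted hippocampus it held for Calb2 alone, against 2.91% and 1.88%. Markers of other Calb2 cells stood beside it: Cajal-Retzius and calretinin interneuron genes summed to 11.8, 11.8 and 14.5 FPKM in control, TRF2-depleted and DKO hippocampus (3 of 3 measured members higher in DKO than in control, 0 past the threshold, Lhx1 and Lhx5 listed at 0 in control), and mossy cell genes to 23.6, 26.8 and 26.2 FPKM. Ociad2 made up most of the mossy cell sums, at 21.6, 23.9 and 24.1 FPKM in the same conditions. The part of these cells in the Calb2 value was not tested.

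Tnnt1, a troponin of slow muscle that is known as a marker of thalamic relay neurons in mouse, was at 0.398, 0.419 and 0.536 FPKM in the 3 hippocampus conditions and at 0.816 and 0.577 FPKM in cortex, and its 3 rows were not tested. Ramp3, which modifies calcitonin-family receptors, had 1.47, 1.65 and 1.82 FPKM in control, TRF2-depleted and DKO hippocampus (p = 0.700 and 0.461 against control in the authors' deposited table). In cortex Ramp3 was listed at 1.85 FPKM in the control group and 0.00126 FPKM in the TRF2-depleted group, a log2 ratio of -10.51 that the authors did not test. Its deposited locus (chromosome 11 from 6650148 to 6677477) begins before the RefSeq gene (6658506 to 6677478). A pooled value so near 0 can be a failed estimate, which was not tested, and nothing is read from this ratio.

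**Figure D3:**
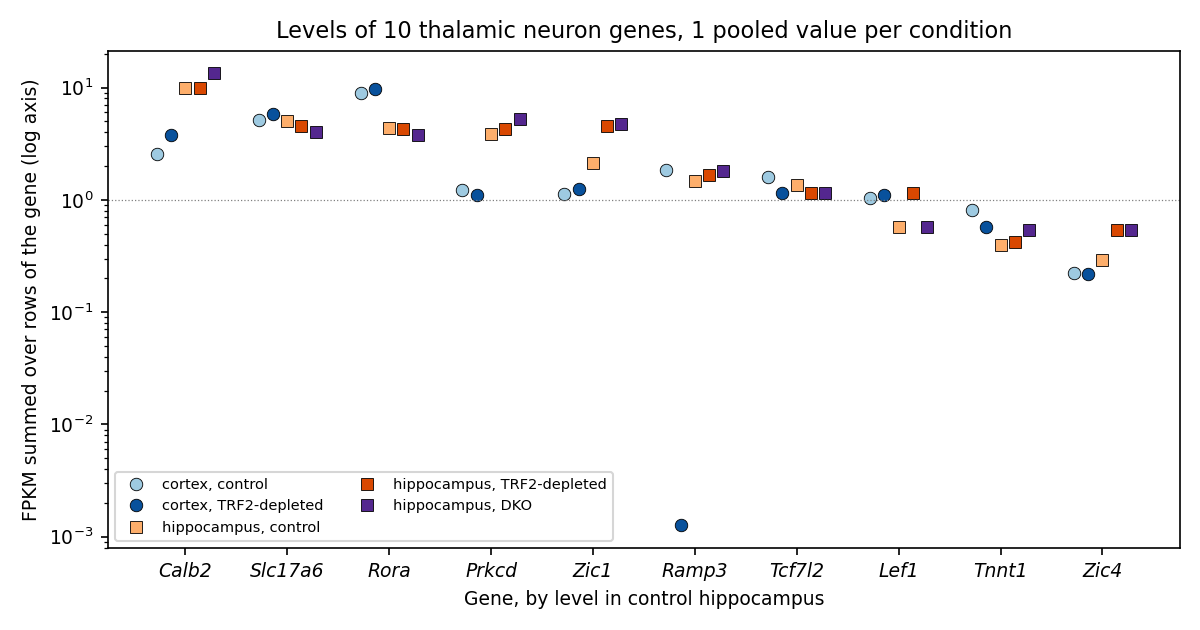
Summed FPKM (vertical axis, logarithmic) of the 10 genes (horizontal axis, ordered by level in control hippocampus) in the 5 conditions, with 1 pooled value each. Calb2 leads in hippocampus and Rora in cortex, Zic1 is the gene whose TRF2-depleted and DKO squares both stand well above the control square at over 1 FPKM, and the lone low point is Ramp3 in TRF2-depleted cortex.

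Levels ordered the genes differently in cortex and hippocampus. In control hippocampus the order was Calb2, Slc17a6, Rora, Prkcd, Zic1, Ramp3, Tcf7l2, Lef1, Tnnt1 and Zic4, from 9.82 down to 0.288 FPKM. In control cortex Rora led at 9.02 FPKM, followed by Slc17a6 at 5.14 and Calb2 at 2.55 FPKM, and Zic4 was last at 0.221 FPKM. With pooled values, neighbours in these orders cannot be said to differ beyond their spread. Calb2 and Prkcd were 3.86 and 3.12 times as high in control hippocampus as in control cortex, and Rora 0.483 times, across tables that were normalised separately.

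Over all 10 genes the median log2 ratio was 0.11 in TRF2-depleted and 0.37 in DKO hippocampus, and it was 0.09 (8 genes) and 0.31 (7 genes) over those with at least 1 FPKM in 1 group. Over all genes at that level it was 0.00 and 0.01. In TRF2-depleted hippocampus 7 were higher and 3 lower, and in DKO 6 and 4. For DKO against TRF2-depleted the median was 0.04, with 0 of 6 tested members past the threshold (0.0726% of all tested rows higher and 0.0817% lower). Cortex gave a median of 0.03 over the 10 genes and 0.10 over the 8 with at least 1 FPKM, against -0.03 over all genes at that level, with 5 members higher and 5 lower, with 0 of 3 tested members past the threshold against 0.0734% of rows higher and 0.231% lower. The cortex mean of -1.06, which includes Ramp3 at -10.51, had the opposite sign. Only 6 of the 10 genes had a tested row in hippocampus and 3 in cortex, so most of these ratios carry no test. Summed over the list the level was 29.2 FPKM in control, 32.4 FPKM in TRF2-depleted and 35.7 FPKM in DKO hippocampus, and 27.1, 27.9 and 31.0 FPKM without Zic1. The 8 genes other than Zic1 and Zic4, set apart after their values were seen, had medians of 0.05 and 0.15 in hippocampus and -0.03 in cortex.

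A further 16 genes of thalamic neurons were read from a separate list. In TRF2-depleted hippocampus 7 of 11 measured members (at least 1 FPKM in 1 group) were higher and 4 lower, with a median log2 ratio of 0.07. In DKO the split was the same, with a median of 0.06, and by Cuffdiff 0 members passed and 0 had an unadjusted p under 0.05 in either. For TRF2 depletion, the authors' deposited table gives the lowest p for Amotl1 (1.69 and 2.03 FPKM, p = 0.105) and Rgs16, a regulator of G-protein signalling (1.68 and 2.25 FPKM, p = 0.135). Gbx2 and Shox2, transcription factors that mark developing thalamus, were listed at 0 in control and TRF2-depleted hippocampus, and at 0.0454 and 0 FPKM in DKO. In cortex 4 of 9 measured were higher and 5 lower (median -0.06, 0 past the threshold), and 1 had an unadjusted p under 0.05, the RNA-editing enzyme Adarb1 (p = 0.0396, q = 0.431 in the authors' deposited table). Habenular genes, from the nucleus between hippocampus and thalamus, had medians of -0.12 and -0.16 over 4 measured members in TRF2-depleted and DKO hippocampus, with 0 past the threshold by Cuffdiff and 0 at an unadjusted p under 0.05. These medians leave out the listed habenular genes under 1 FPKM. Over all 10 listed, 5 were higher and 4 lower in TRF2-depleted hippocampus, and 4 higher and 6 lower in DKO. Their defining factor Pou4f1 was listed at 0 in control and TRF2-depleted hippocampus and at 0.0210 FPKM in DKO. Lhx9, another transcription factor of the thalamus on the wider list, was at 1.95, 2.13 and 1.64 FPKM in control, TRF2-depleted and DKO hippocampus and was not tested. The part of thalamic or habenular tissue in the Zic1 values was not tested.

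Genes of the meninges were higher in the same conditions as Zic1. Of 13 measured meningeal members, 13 were higher in TRF2-depleted hippocampus (median log2 ratio 0.56) and 12 in DKO (median 0.43), with 1 past the threshold in each, and 8 and 4 at an unadjusted p under 0.05. Over all tested rows, 0.0543% passed as higher in TRF2-depleted and 0.0635% in DKO hippocampus. Without adjustment these shares were 2.42% and 3.83%. Between DKO and TRF2-depleted hippocampus 5 of the 13 were higher in DKO and 8 lower (median -0.15). There 0 passed by Cuffdiff and 1 had an unadjusted p under 0.05, where 2.91% of all tested rows were higher and 1.88% lower. The summed level of the 15 genes was 210 FPKM in control, 327 FPKM in TRF2-depleted and 335 FPKM in DKO hippocampus, and Ptgds made up most of each sum. The member that passed was Ptgds, the prostaglandin D synthase of meninges and choroid plexus, for which the authors' deposited table lists 165 FPKM in control, 265 FPKM in TRF2-depleted and 283 FPKM in DKO hippocampus (log2 ratios 0.68 and 0.78, q = 0.0301 in both). Foxc1, a factor of meningeal fibroblasts, had 1.11, 1.56 and 1.81 FPKM, and did not pass in DKO (p = 0.00535, q = 0.495 in the authors' deposited table). In cortex, where Zic1 stood at 1.14 and 1.24 FPKM, 5 of 13 measured meningeal members were higher and 8 lower (median -0.06), with sums of 304 and 273 FPKM, 0 past the threshold by Cuffdiff and 0 at an unadjusted p under 0.05. None of the 15 was listed at 0 in any condition. The part of meningeal tissue in the Zic1 values was not tested.

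Choroid plexus genes were higher beside Zic1 in TRF2-depleted hippocampus, and lower in DKO and in TRF2-depleted cortex. Their 13 members summed to 323 FPKM in control, 550 FPKM in TRF2-depleted and 23.3 FPKM in DKO hippocampus. In TRF2-depleted hippocampus 11 of 11 measured were higher (median 0.63, 0 called). Before adjustment 3 had p under 0.05 there by Cuffdiff, where 2.42% of all tested rows were higher. In DKO 9 of 9 were lower (median -2.96) with 4 past the threshold, Ttr, Kl, Sostdc1 and Clic6, where 0.118% of all tested rows were lower. In cortex 13 of 13 were lower, with sums of 141 and 41.4 FPKM and a median of -2.18 over the 5 measured. Most of these sums was Ttr, at 93.3 and 1.15 FPKM, and Enpp2, at 41.3 and 38.3 FPKM. Ttr, the transthyretin of choroid plexus, fell there with q = 0.00864 by the authors' deposited table and a log2 ratio of -6.34, while that of Zic1 was 0.12. Of all tested cortex rows, 0.231% passed as lower. Zic1 was as high in DKO as in TRF2-depleted hippocampus, at 4.69 and 4.51 FPKM. Blood vessel genes had medians of 0.31 and -0.09 over 11 measured members in TRF2-depleted and DKO hippocampus, with 0 called. Before adjustment 3 and 1 had p under 0.05 by Cuffdiff. Under TRF2 depletion Esam and Slc2a1 were higher (log2 ratios 0.53 and 0.53) and Ly6c1 lower (-0.67), against 2.42% of all tested rows higher and 2.46% lower. In DKO Slc2a1 was higher (0.61), against 3.83% and 2.87%. Blood vessel genes are given beside Lef1, which endothelium expresses and which was at 1.15 and 0.570 FPKM in the same groups. Oligodendrocyte genes, which stand beside Tcf7l2, had medians of 0.08 and 0.07 over 12 measured members with 0 called (before adjustment, 0 had p under 0.05). In cortex, where Tcf7l2 had a log2 ratio of -0.47, their median was -0.24, with 9 of 12 lower and 0 called. Before adjustment 4 had p under 0.05 there by Cuffdiff, where 4.17% of all tested rows were lower and 2.07% higher. Astrocyte genes, beside Rora, had medians of -0.05 and -0.09 over 8 in TRF2-depleted and DKO hippocampus, with 0 called. Before adjustment 1 had p under 0.05 by Cuffdiff in each. These were Aldh1l1, higher under TRF2 depletion (log2 ratio 0.38, against 2.42% of rows higher), and Aqp4, lower in DKO (-0.42, against 2.87% lower). The part of these cells in the member values was not tested. Of the other regions known for Zic1, septal genes summed to 11.5, 11.2 and 11.2 FPKM in control, TRF2-depleted and DKO hippocampus. Trpc4 made up most of these sums, at 9.03, 8.31 and 7.77 FPKM. Of the 6 septal genes, 3 were higher and 3 lower under TRF2 depletion, and 5 higher and 1 lower in DKO, with 0 called. Lhx8 was listed at 0 in control, 0.218 FPKM in TRF2-depleted and 0.0917 FPKM in DKO hippocampus. Glra2 was at 2.08, 2.36 and 2.84 FPKM. Cerebellar granule genes summed to 2.03, 2.56 and 2.54 FPKM, mostly Cbln1, with the defining gene Gabra6 listed at 0 in all 3 conditions.

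**Figure D4:**
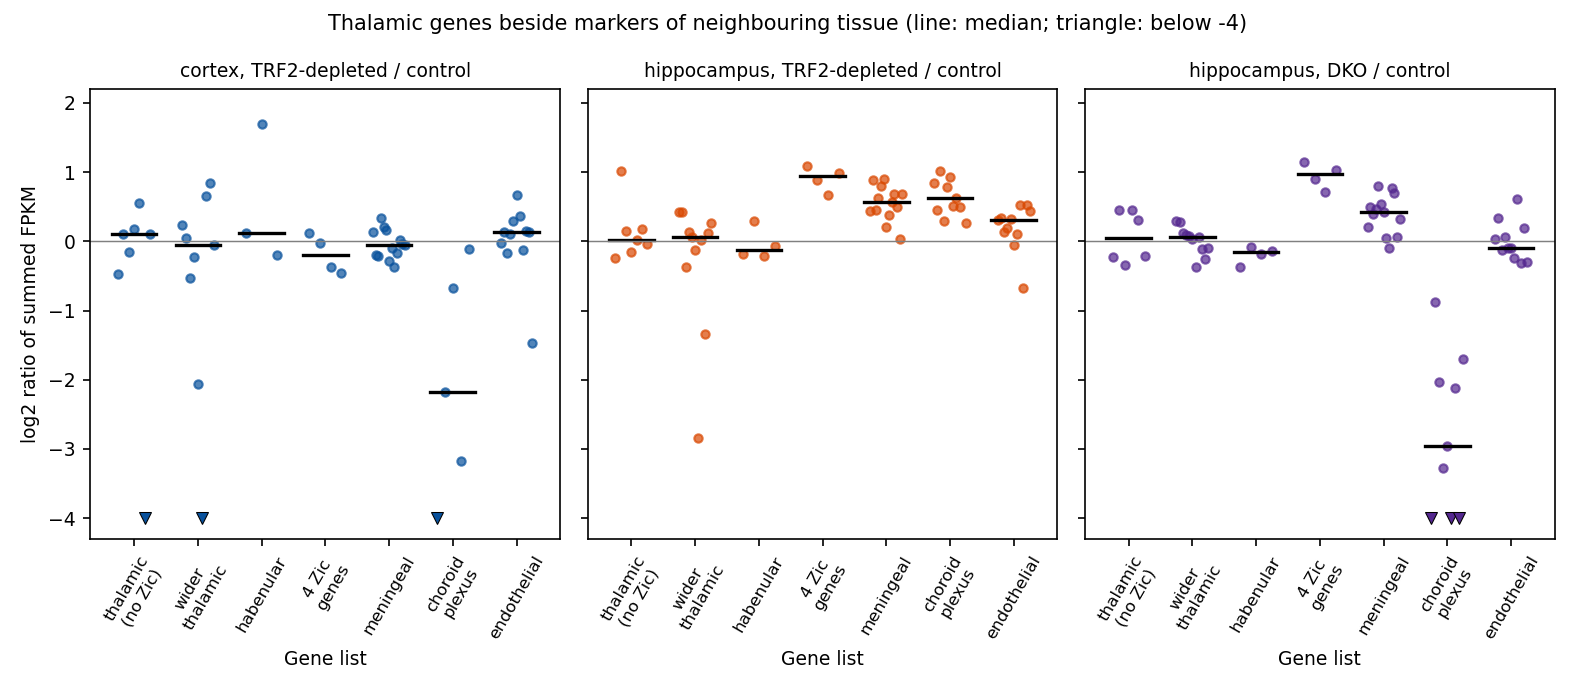
Log2 ratio of summed FPKM (vertical axis) of single genes (points) and their median (line) for the thalamic genes without Zic1 and Zic4, 2 further lists of the thalamus and habenula, 4 Zic genes (Zic1, Zic2, Zic4 and Zic5) and 3 lists of neighbouring tissue, for genes with at least 1 FPKM in 1 group (all 4 for the Zic genes). Triangles mark ratios below the axis limit. The Zic and meningeal points lie above 0 in both hippocampus panels except 1 meningeal gene in DKO, while choroid plexus points lie above 0 under TRF2 depletion and below 0 in DKO.

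The sums of regional markers differed between the tissues, across tables that were normalised separately. Hippocampal marker genes summed to 17.4 FPKM in control cortex and to 85.6, 72.6 and 87.1 FPKM in the 3 hippocampus conditions. Cortical markers summed to 127 and 83.5 FPKM in control cortex and hippocampus. Of the cortical list, Neurod6 (21.0 and 50.8 FPKM) and Foxp1 (1.14 and 2.66 FPKM) were higher in control hippocampus. Within the hippocampal list, 6 of 8 markers were lower and 2 higher in TRF2-depleted hippocampus, where Zic1 rose (median of the list -0.65). Of these 3 passed as lower, Dsp, Lct and C1ql2, against 0.109% of all tested rows lower. In DKO 4 were lower and 4 higher (median -0.22), and Dsp and C1ql2 passed as lower, against 0.118% of rows. Spink8 (log2 ratios 0.47 and 0.65) and Fibcd1 (0.28 and 0.47) were higher in both conditions and did not pass. C1ql2, a secreted synaptic protein of dentate granule neurons, was at 19.2, 11.4 and 12.7 FPKM in control, TRF2-depleted and DKO hippocampus. The part of these shifts in the Zic1 values was not tested. Terf2 had 3.59 and 0.202 FPKM in control and TRF2-depleted cortex and 2.01, 0.883 and 0.753 FPKM in control, TRF2-depleted and DKO hippocampus. Striatal genes, from tissue that borders the cortex, summed to 61.2 and 77.5 FPKM in cortex, where Prkcd was at 1.23 and 1.10 FPKM, and to 37.8, 35.5 and 37.9 FPKM in hippocampus.

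Genes whose 3 log2 ratios against control lay nearest to those of Zic1 were ranked over 10746 genes above 0 in all 5 conditions and at 1 FPKM or more in each tissue. The nearest were Prg4 (Euclidean distance 0.14 on the log2 scale), Tagln (0.15), Dlk2 (0.16), Rpgr (0.17), Ntsr2 (0.18) and Usp36 (0.20). Tagln, the actin-binding protein transgelin of smooth muscle, had 1.37, 2.89 and 3.25 FPKM in control, TRF2-depleted and DKO hippocampus and 2.31 and 2.32 FPKM in cortex. Ntsr2, a neurotensin receptor, had 15.6, 32.7 and 32.4 FPKM in hippocampus and 18.3 and 18.0 FPKM in cortex. Of these 6 genes 0 passed the threshold, and their smallest p in the authors' deposited table was 0.116 (Dlk2, DKO against control). Prg4 was not tested. The likeness rests on 3 ratios, of which the hippocampus pair shares its control.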

How the data were processed

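Total RNA was purified by RNeasy kit, and NEBNext Ultra was used for the libraries, per the labels' protocols. CASAVA 1.8, TopHat2, Cufflinks and Cuffdiff and the build mm10 are named in the submitters' processing notes. No settings or annotation for these tools are stated in the labels or headers. The deposited FPKM are 1 value per condition and coding-sequence row, per the file headers, with replicates pooled by the authors, so the read depth is unknown and no counting error is given. Each row carries a deposited p-value and q-value from the authors' test, per the file headers. For hippocampus, adjusting all 33101 tested rows of the 3 comparisons together by Benjamini-Hochberg returned the deposited q within 5.26e-07. For cortex the same step missed the deposited q by up to 0.335. Separate animals are not stated for the samples, so the p may reflect technical spread alone.

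FPKM were summed over the rows of a gene, and log2 ratios were computed without a pseudocount. A gene was called when 1 of its tested rows had a deposited q of 0.05 or less. Genes named are the 10 members, the members described of 2 lists (relatives of Zic1, wider thalamic), up to 4 called members of another list or 2 with the smallest p, paralogs by level, and the 6 genes nearest to Zic1. Foxc1 and the defining markers at 0 were named beyond that rule, after their values were seen. The same holds for Enpp2, Spink8, Fibcd1, Neurod6 and Foxp1. The members and the 17 other lists were chosen with earlier results of these data known. Of 11 striatal symbols 10 were found, Drd1 standing under the older symbol Drd1a. One item is not reported here. Coordinates are the deposited loci, counted from 1. Alternatives covered the q threshold, the adjustment, the minimum FPKM, the pseudocount, centring, the most abundant row in place of the sum, and leaving out Zic1. Calculations used Python 3.11.15, numpy 2.4.6, pandas 2.3.3 and matplotlib 3.10.9, and were tested on simulated ratios.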

Additional observations from a re-analysis of the deposited data

How the results depend on the processing

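The call of Zic1 in TRF2-depleted and DKO hippocampus held at a q threshold of 0.1, with at least 1 FPKM in 1 group and with the adjustment within each comparison (0.0307 and 0.0276), and was lost at a q threshold of 0.01, where the count of members called was 0 in both, since the smallest deposited q in that table is 0.0301. Its log2 ratio ranged from 0.82 to 1.09 and from 0.87 to 1.15 over the other scales. At an unadjusted p under 0.05 the counts of members called were 1 in cortex, 4 in DKO against control and 1 in DKO against TRF2-depleted, against 0, 1 and 0. Over the members, the cortex median log2 ratio turned from 0.03 to -0.094 with the most abundant row in place of the sum and was 0.14 for the 2 members that reached 5 FPKM. It also changed sign, to -0.031, without Zic1. The TRF2-depleted hippocampus median turned from 0.11 to -0.069 over the 2 such members. The DKO median of 0.37 was 0.22 with the most abundant row and 0.16 with a pseudocount of 1, and the median of DKO against TRF2-depleted was 0.36 over 2 members with at least 5 FPKM. Of the alternative values for counts and medians, 37 kept within 0.1 on the log2 scale, or 1.5 times for a count (1 of them, the cortex median without Zic1, with a change of sign), 9 moved further and 2 both moved further and changed sign. With the most abundant row, 4 of 40 member ratios changed sign, those of Lef1 in cortex and in TRF2-depleted hippocampus, of Rora in TRF2-depleted hippocampus and of Tcf7l2 between DKO and TRF2-depleted, none of them called. The causes were not tested. No paired analysis was possible because the authors pooled the replicates, and for the same reason no replicate could be left out.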
